A study of Mus musculus with 8 samples.

Results

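The 9 genes described here, Polrmt, Tfam, Tfb1m, Tfb2m, Polg, Polg2, Lrpprc, Slirp and Pnpt1, are nuclear genes whose proteins copy and transcribe mitochondrial DNA and look after its RNA. They were chosen by symbol, and all 9 were found among 37620 listed mouse genes. Each was measured in 8 single C57BL/6 oocytes at the MII stage, in which the egg waits in its second meiosis for fertilisation, 4 of genotype Hiraf/f, called WT, and 4 of genotype Hiraf/f, Gdf9-Cre+, called KO. All 8 therefore carried floxed Hira, which encodes a histone chaperone for the variant H3.3, and the KO oocytes also had Gdf9-Cre, a recombinase driven by an oocyte gene promoter. The genotype and description labels set the groups, although the titles of all 8 samples bear the tag Gdf9-Cre+. No label used here gives an age or names the female an oocyte came from. Each genotype therefore counts as 1 sample without replicate. All differences below describe these oocytes, carry no test, and genotype cannot be told apart from female. SDs are the spread between oocytes.

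As background, mitochondria keep a small circular genome of their own that is transcribed from few start points into long RNAs. POLRMT is the RNA polymerase, TFAM bends and packs the DNA and helps start transcription, and TFB2M opens the promoter. POLG with its accessory subunit POLG2 replicates the genome. The long RNAs are cut and polyadenylated, and LRPPRC with its partner SLIRP binds and stabilises the mitochondrial mRNAs, while PNPT1 is an exoribonuclease that helps degrade RNA there. The mature egg makes little new nuclear RNA, so its mRNA was stored during growth.

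Levels are given in FPKM, which divides a gene's reads by its length and by the library size and is the unit the authors deposited, so they can be set side by side between genes. Library totals recovered from the FPKM steps were 38032455 to 50208686 reads. Listed genes took 84.3% to 86.2% of the total in WT and 75.0% to 80.3% in KO, and FPKM of at least 1 was reached by 7121 to 7467 genes in WT and 7827 to 8512 in KO. These features moved with the genotype, and their part in the differences below was not tested. Hira itself had 42, 0, 96 and 1 reads in WT oocytes 1, 2, 4 and 5 and 0, 2, 0 and 2 in KO oocytes 1, 3, 5 and 6. It was thus low in both genotypes and is a weak check of any 1 label. All 10 oocyte markers reached an FPKM of 1 in some oocyte, though Figla had no read in WT oocyte 2. Their sums, mostly Dppa3, were 15377 to 20503 in WT and 8820 to 11219 in KO. Ratios of single markers, KO over WT, ran from 0.370 for Oosp1 to 2.76 for Figla. Of 14 cumulus and granulosa markers, 4 including Foxl2 and Amh had no read in any oocyte, and the summed level was 17.8 to 29.5 FPKM in WT and 14.5 to 34.2 in KO, nearly all of it Cyp19a1 and Nr5a2. Of 9 other somatic and blood markers, 4 had no read in any oocyte, and the sum was 3.65 to 6.95 FPKM in WT, mostly Pecam1, and 0.939 to 2.58 in KO. Ptprc had reads only in KO oocytes 1 and 6, at 1.81 and 1.16 FPKM.

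The 9 genes ranged from moderate to barely detected. Averaged over the 8 oocytes the order was Tfb1m at 7.41 FPKM, Polg2 at 5.98, Tfb2m at 5.69, Pnpt1 at 2.94, Lrpprc at 1.18, Tfam at 1.01, Polrmt at 0.458, Slirp at 0.132 and Polg at 0.0651. The ranges of Tfb1m, Polg2 and Tfb2m over oocytes overlapped, as did those of Lrpprc, Tfam and Polrmt. Tfb2m was above Polrmt, the gene of the polymerase that TFB2M serves, in all 8 oocytes. Tfb1m was too, but in KO oocyte 5 its 0.990 FPKM was close to the 0.745 FPKM of Polrmt. The level of Tfb1m, and so its place in the order, also rests on a length of 1327 bases in the files where GENCODE M21 has 3609. The accessory subunit gene Polg2 was above Polg, the gene of the catalytic subunit it clamps, in all 8 oocytes. Counts below use genes with 4 or more oocytes at an FPKM of 1 or above. Tfb1m, Polg2, Tfb2m and Pnpt1 passed this filter, each with at least 3 oocytes of either genotype, and Lrpprc, Tfam, Polrmt, Slirp and Polg did not.

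Polg2 stood out among the 4 genes that passed, while the low genes mostly had higher KO means. Of the 4, 1 was 2-fold or more above WT in KO and 0 were that far below, where 18.3% and 6.84% of all 7833 compared genes were. The KO mean was the higher one in 2 of the 4 and in 56.3% of compared genes. Over all compared genes 72.8% of the 2-fold differences were towards KO, and 62.3% with median-of-ratios scaling. The 4 genes had a median difference of -0.32 on the log2(FPKM + 1) scale, against 0.10 over all compared genes. Of the 5 genes below the filter, 4 had a KO mean at least 2-fold higher. This is to be read against 43.0% of the 5432 genes below the filter that had at least 80 reads in all, a background chosen after the values were seen, so higher means in KO are common among genes this low. In that background 17.4% were lower by 2-fold, 65.1% had the higher mean in KO, as had 5 of the 5, and 7.71% and 1.68% did not overlap in the higher and lower direction. The 5 include Slirp, whose level is uncertain and whose ratio was only 1.06, and 0.928 with median-of-ratios scaling. They also include Polg, which reached 80 reads only through its KO reads. Over all 9 genes, 5 were higher by 2-fold and 0 lower, 7 had the higher mean in KO, Slirp and Tfb2m by little, and 2 were higher without overlap. Of the 18416 genes with any read these shares were 36.9%, 15.6%, 61.6% and 8.46%, and 3.7% were lower without overlap.

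**Figure D1:**
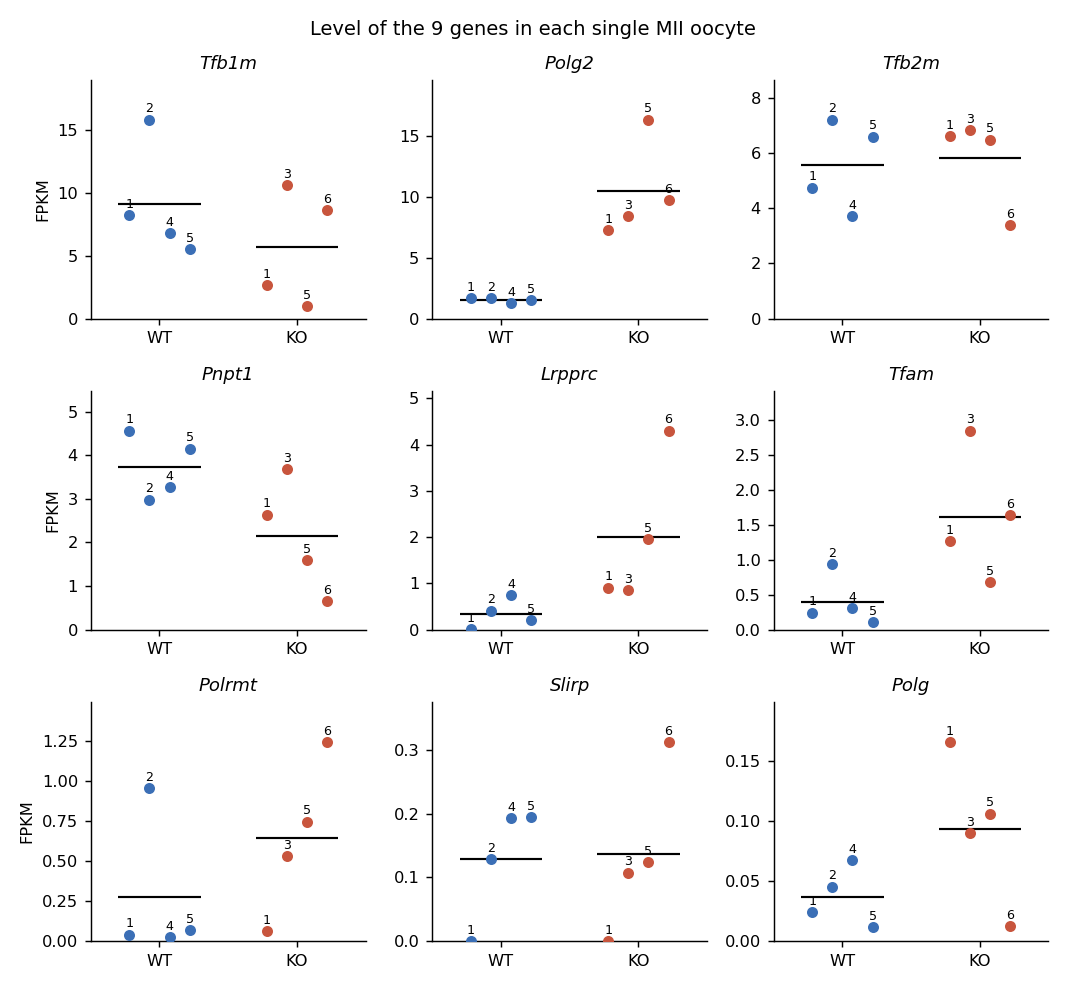
FPKM (vertical axes, each from 0 and on its own scale) of the 9 genes in each oocyte, ordered by mean level. Points are single oocytes with their number, WT blue and KO red, and the black line is the mean of the 4 oocytes. Polg2 and Lrpprc show no overlap between genotypes.

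Polg2 (ENSMUSG00000020718, chromosome 11, 106768253 to 106779537 on the minus strand of GRCm38) encodes the subunit that binds POLG as a dimer and lets it copy long stretches of mitochondrial DNA. WT oocytes 1, 2, 4 and 5 held 1.67, 1.70, 1.25 and 1.52 FPKM, and KO oocytes 1, 3, 5 and 6 held 7.27, 8.40, 16.3 and 9.72. The WT oocytes lay close together and every KO oocyte was more than 4 times the highest of them. The WT mean was 1.54 ± 0.205 FPKM and the KO mean 10.4 ± 4.06 (SD, n = 4 oocytes each), a 6.80-fold difference. It rested on 1175 reads in WT (95% exact Poisson interval 1109 to 1244) and 7944 in KO (7770 to 8121). Such intervals cover counting error only, since amplified reads are not independent molecules. Of all compared genes 13.4% were higher in KO without overlap. The fold was between 5.51 without KO oocyte 5 and 7.48 without KO oocyte 1. The exons of Polg2 share 132 bases with Milr1 on the other strand, and Milr1 had no read in 6 oocytes and 0.0111 and 0.503 FPKM in KO oocytes 3 and 6.

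Polg (ENSMUSG00000039176, chromosome 7, 79446231 to 79466362, minus strand), the catalytic subunit gene, was near the detection limit. WT oocytes held 7, 14, 23 and 3 reads and KO oocytes 49, 24, 32 and 4, in the order of oocytes given above. In FPKM these were 0.0237, 0.0451, 0.0669 and 0.0115 in WT and 0.166, 0.0899, 0.106 and 0.0123 in KO. The genotypes overlapped, as KO oocyte 6 was as low as WT oocyte 5. The files use a length of 6845 bases where GENCODE M21 has 10742, which bears on the level but not on the ratio. The ratio of means was 2.54, and 1.88 without KO oocyte 1. Fanci, on the other strand, shares 8.57% of the exonic bases of Polg and had means of 0.446 FPKM in WT and 0.988 in KO. Whether counting used strand is not stated in the labels or the table, so reads of the pair cannot be told apart in the shared bases.

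The promoters of 4 genes with higher KO means and of Tfb2m, whose means were close, are shown. Binding motifs of nuclear respiratory factor 1 (NRF1) or of the ETS factor GABP can be read in all but that of Lrpprc, which holds only a GC box. Both factors are known regulators of genes for mitochondrial proteins. Each promoter holds 250 bases before and 50 bases after the RefSeq start of the gene on GRCm38.p6. All are on the minus strand and are written 5′ to 3′ along the gene. For Tfam that start lies inside the gene as placed by GENCODE M21, and so does most of the sequence shown. Capitals mark GCATGCGC (NRF1 core), CCGGAAG (ETS core) and GGGCGG (GC box) on either strand, each searched without mismatch.
Polg2: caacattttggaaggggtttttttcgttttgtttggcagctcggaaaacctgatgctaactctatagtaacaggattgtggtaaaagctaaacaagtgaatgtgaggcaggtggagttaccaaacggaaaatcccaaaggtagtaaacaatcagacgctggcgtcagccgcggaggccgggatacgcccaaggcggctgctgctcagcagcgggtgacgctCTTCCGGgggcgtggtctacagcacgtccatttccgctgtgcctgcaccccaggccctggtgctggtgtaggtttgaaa
Lrpprc: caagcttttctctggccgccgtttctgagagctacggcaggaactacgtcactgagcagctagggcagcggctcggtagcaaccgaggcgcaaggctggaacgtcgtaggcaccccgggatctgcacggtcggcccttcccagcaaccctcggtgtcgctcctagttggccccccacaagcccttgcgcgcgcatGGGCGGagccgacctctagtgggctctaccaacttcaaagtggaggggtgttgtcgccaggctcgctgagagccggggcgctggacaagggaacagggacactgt
Tfam: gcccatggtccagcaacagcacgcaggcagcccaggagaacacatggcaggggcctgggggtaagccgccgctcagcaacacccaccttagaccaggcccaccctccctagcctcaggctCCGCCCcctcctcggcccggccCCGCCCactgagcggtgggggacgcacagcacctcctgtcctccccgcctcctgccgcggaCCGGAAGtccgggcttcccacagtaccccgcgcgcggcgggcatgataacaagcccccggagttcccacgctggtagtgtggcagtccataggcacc
Polrmt: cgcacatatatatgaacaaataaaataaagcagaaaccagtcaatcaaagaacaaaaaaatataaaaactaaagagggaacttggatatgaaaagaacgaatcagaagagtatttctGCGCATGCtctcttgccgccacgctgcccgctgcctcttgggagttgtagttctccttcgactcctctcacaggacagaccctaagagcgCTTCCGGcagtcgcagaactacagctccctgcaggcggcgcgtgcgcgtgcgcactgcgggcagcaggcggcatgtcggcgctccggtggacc
Tfb2m: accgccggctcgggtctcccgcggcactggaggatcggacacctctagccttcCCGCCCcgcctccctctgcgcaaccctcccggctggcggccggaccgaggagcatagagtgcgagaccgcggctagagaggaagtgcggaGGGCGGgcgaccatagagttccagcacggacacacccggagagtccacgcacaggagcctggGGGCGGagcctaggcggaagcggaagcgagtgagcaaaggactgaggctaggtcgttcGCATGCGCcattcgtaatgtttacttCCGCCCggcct
They lie at chr11:106779488-106779787, chr17:84790737-84791036, chr10:71237995-71238294, chr10:79746532-79746831 and chr1:179546227-179546526, in that order. All 9 genes matched a promoter. The ETS core was in 5 of 9, Polrmt, Tfam, Polg, Polg2 and Slirp, and in 8.86% of all 32851 promoters of that length. The NRF1 core was in 2 of 9, Polrmt and Tfb2m, and in 2.71% of all, and the GC box in 6 of 9 and 35.7%. Of the 5 genes with a KO mean at least 2-fold higher, 4 held the ETS core, Polrmt, Tfam, Polg and Polg2, and Lrpprc did not. Of the other 4 genes 1 held it, Slirp, whose means were nearly equal but whose level is uncertain. Polrmt fell under 2-fold without some single oocytes, and Polg had few reads. The ETS core was not counted among all genes with higher KO means, so this split of the 9 genes has no background and supports no link. A match is a run of letters and not a shown binding site, and a link between the motifs and the differences was not tested.

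Among the genes of the transcription machinery, Tfam and Polrmt had KO means more than 2-fold higher, and Tfb2m had close means. Tfb1m, described beside them, had the lower mean in KO. Polrmt (ENSMUSG00000020329, chromosome 10, 79736123 to 79746581, minus strand) held 0.0396, 0.956, 0.0255 and 0.0673 FPKM in WT and 0.0592, 0.531, 0.745 and 1.24 in KO. The genotypes overlapped, with 1 high WT oocyte, number 2, and 1 low KO oocyte, number 1. The means of 0.272 ± 0.456 and 0.645 ± 0.491 FPKM (SD, n = 4 oocytes each) gave a ratio of 2.37, which was 14.6 without WT oocyte 2 and 1.63 without KO oocyte 6. It was also under 2 without WT oocyte 1, 4 or 5, at 1.84, 1.82 and 1.89, so the size of the difference depended on single oocytes.

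Tfam (ENSMUSG00000003923, chromosome 10, 71225464 to 71238280, minus strand) held 0.245, 0.945, 0.310 and 0.107 FPKM in WT and 1.27, 2.85, 0.684 and 1.64 in KO. WT oocyte 2 lay above KO oocyte 5, and the other WT oocytes lay below every KO oocyte. The means were 0.402 ± 0.372 and 1.61 ± 0.914 FPKM (SD, n = 4 oocytes each), a 4.01-fold difference from 324 reads in WT and 1215 in KO. The fold was 7.30 without WT oocyte 2 and at least 2.98 without any other oocyte.

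Tfb1m (ENSMUSG00000036983, chromosome 17, 3519256 to 3557781, minus strand) encodes a methyltransferase of the small mitochondrial ribosomal RNA. It held 8.23, 15.8, 6.78 and 5.51 FPKM in WT and 2.67, 10.6, 0.990 and 8.61 in KO. KO oocytes 1 and 5 were below every WT oocyte, and KO oocytes 3 and 6 lay among them. The WT mean of 9.09 ± 4.63 was 1.59-fold above the KO mean of 5.73 ± 4.63 FPKM (SD, n = 4 oocytes each), a ratio that was 2.22 without KO oocyte 3, 1.24 without KO oocyte 5 and 1.19 without WT oocyte 2. Over the 8 oocytes, the compared genes whose log2(FPKM + 1) was most like that of Tfb1m, the most abundant of the 9, were Vps36, Ndufb10 and Rc3h1, with Pearson r of 0.941, 0.937 and 0.925. These points share library totals and both genotypes.

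Tfb2m (ENSMUSG00000026492, chromosome 1, 179528055 to 179546267, minus strand) held 4.74, 7.21, 3.71 and 6.59 FPKM in WT and 6.61, 6.82, 6.48 and 3.38 in KO. The genotypes overlapped throughout. The ratio of the means, 5.57 ± 1.62 and 5.82 ± 1.63 FPKM (SD, n = 4 oocytes each), was 1.05 and ranged from 0.942 to 1.19 as each oocyte was left out. It had the narrowest such range of the 9 genes.

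**Figure D2:**
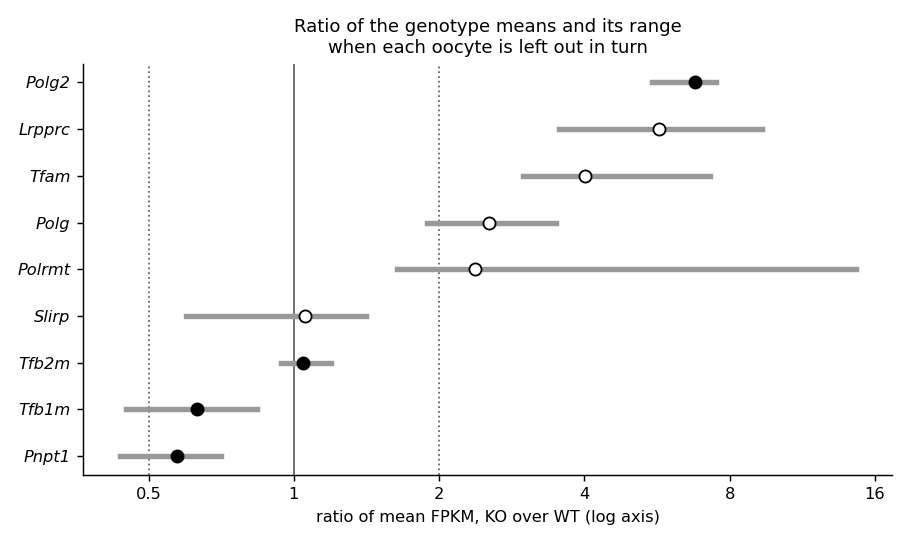
Ratio of mean FPKM, KO over WT (horizontal, log axis), for the 9 genes. Circles are the ratio over all 8 oocytes, filled for the 4 genes that passed the filter, and grey bars its range when each oocyte is left out in turn. The bar of Polg2 spans 5.51 to 7.48, and that of Polrmt 1.63 to 14.6. Dotted lines mark a 2-fold difference.

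Of the RNA-binding and RNA-degrading genes, Lrpprc was higher in KO, Pnpt1 had a lower mean and Slirp could not be read. Lrpprc (ENSMUSG00000024120, chromosome 17, 84705247 to 84790789, minus strand) held 0.0164, 0.415, 0.756 and 0.213 FPKM in WT and 0.908, 0.856, 1.96 and 4.30 in KO. The genotypes did not overlap, as in the 7.71% of low genes given above. KO oocytes 1 and 3 were just above WT oocyte 4. The means were 0.350 ± 0.316 and 2.01 ± 1.61 FPKM (SD, n = 4 oocytes each), a 5.72-fold difference from 558 reads in WT and 3084 in KO. The fold was 3.54 without KO oocyte 6 and 9.33 without WT oocyte 4.

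Slirp (ENSMUSG00000021040, chromosome 12, 87443896 to 87452206, plus strand) held 0, 18, 30 and 23 reads in WT and 0, 13, 17 and 46 in KO. The sums of 71 (95% exact Poisson interval 55 to 90) and 76 (60 to 95) were close. WT oocyte 1 and KO oocyte 1 had 0 reads, and a floor of 3 reads there is 0.0224 FPKM over the full 3104 bases. However, 97.8% of the exonic bases of Slirp in GENCODE M21 are shared with genes of the other strand, nearly all with Snw1, a splicing factor gene with means of 135 FPKM in WT and 83.3 in KO. The labels and the table do not state how shared reads were treated, so the level of Slirp is uncertain and its low value cannot be set beside that of Lrpprc. If shared reads were not counted for Slirp, the floor given above is no bound on its level.

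Pnpt1 (ENSMUSG00000020464, chromosome 11, 29130744 to 29161828, plus strand) held 4.56, 2.98, 3.26 and 4.15 FPKM in WT and 2.64, 3.68, 1.60 and 0.654 in KO. KO oocytes 1, 5 and 6 were below every WT oocyte, and KO oocyte 3 lay among the WT oocytes. The WT mean of 3.74 ± 0.741 was 1.75-fold above the KO mean of 2.14 ± 1.30 FPKM (SD, n = 4 oocytes each), a ratio that was 2.29 without KO oocyte 3 and 1.42 without KO oocyte 6. The direction was the opposite of that of Lrpprc, and KO oocyte 6 held both the highest Lrpprc and the lowest Pnpt1 of all 8 oocytes.

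The oocytes differed in which of the 9 genes were high. The summed level was 19.5, 30.2, 16.4 and 18.4 FPKM in WT oocytes 1, 2, 4 and 5 and 21.6, 34.0, 29.0 and 29.9 in KO oocytes 1, 3, 5 and 6, with overlap. WT oocyte 2 had the highest WT values of Polrmt, Tfam, Tfb1m, Tfb2m and Polg2, and no gene had its highest WT value in oocyte 1 but Pnpt1. Among KO oocytes, number 3 was highest in Tfam, Tfb1m, Tfb2m and Pnpt1, number 5 in Polg2, and number 6 in Polrmt, Lrpprc and Slirp. The higher KO values of Tfam, Polg2 and Lrpprc thus peaked in 3 different oocytes.

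Of the RNA made from the mitochondrial genome, the mRNA share was lower in KO oocytes 3, 5 and 6 than in every WT oocyte, and the rRNA share overlapped between genotypes. The 13 mRNA genes took 2.71%, 3.54%, 3.99% and 2.87% of gene reads in WT oocytes and 3.08%, 0.652%, 0.909% and 1.47% in KO oocytes, while both rRNA genes took 0.194% to 0.377% in WT and 0.254% to 0.440% in KO. KO oocyte 1 lay among the WT oocytes in the mRNA share. In that oocyte Polg2, at 7.27 FPKM, and Tfam, at 1.27, were above every WT oocyte, Polrmt was as low as in most WT oocytes, and Lrpprc, at 0.908 FPKM, was near the lower end of KO. Over the other KO oocytes the lowest mRNA share, in number 3, went with the lowest Lrpprc and the highest Tfam, Tfb1m, Tfb2m and Pnpt1. The Lrpprc level of number 3, 0.856 FPKM, was close to that of KO oocyte 1, whose share was 3.08%. Every WT oocyte had less Lrpprc than the KO oocytes, with mRNA shares of 2.71% to 3.99%. A link between these genes and the share was not tested. No correlation is given, since the oocytes fall by genotype into few points.

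**Figure D3:**
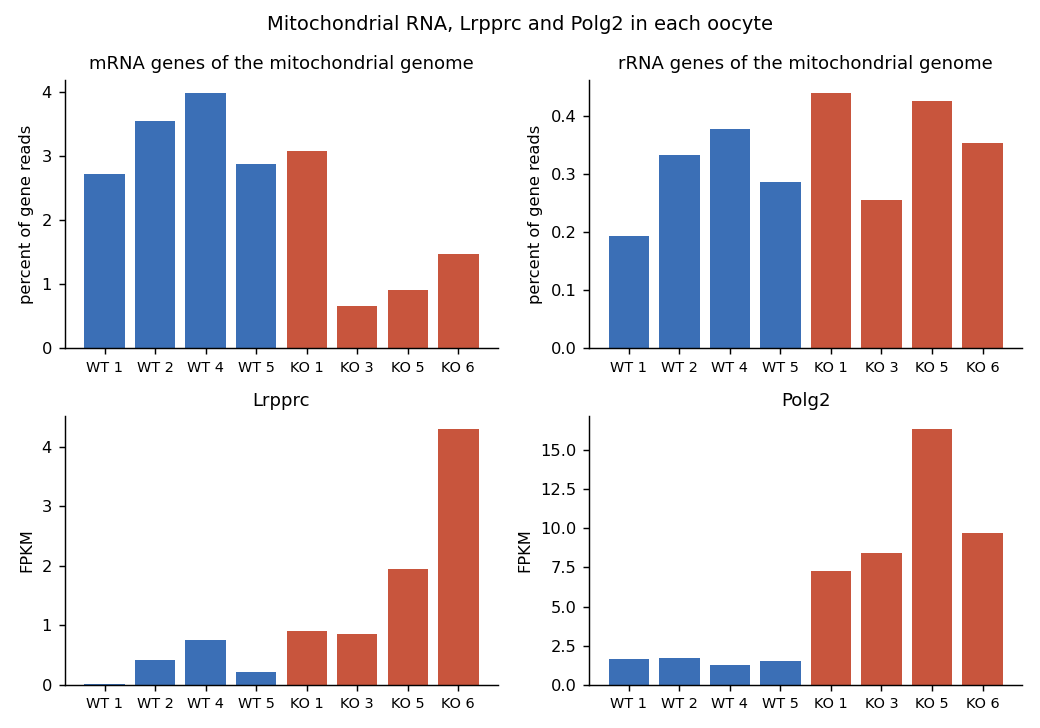
Share of gene reads in percent from the mRNA genes and the rRNA genes of the mitochondrial genome (upper panels), and FPKM of Lrpprc and Polg2 (lower panels), in each of the 8 oocytes, with WT in blue and KO in red and all axes from 0. The mRNA share is 0.652% to 1.47% in KO oocytes 3, 5 and 6 and 3.08% in KO oocyte 1, whereas the rRNA share overlaps between genotypes.

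The wider machinery around the 9 genes was mostly within 2-fold. Of 70 other genes in 6 lists, 69 were matched and 35 passed the filter. KO was above WT by 2-fold or more in 2 of these 35 and below it in 2, and the median difference was -0.02 on the log2(FPKM + 1) scale. The 2-fold counts over all compared genes were 18.3% and 6.84%.

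The transcription partners and terminators had 5 compared genes of 7, none at 2-fold. The most abundant was Mterf1b, a copy of the transcription termination factor gene, with means of 10.5 ± 5.58 in WT and 8.15 ± 5.23 FPKM in KO (SD over 4 oocytes). Mterf1a and Mterf1b are near-identical copies, so their split of reads is uncertain. Of 13 genes for DNA replication and the nucleoid 5 were compared, and 1 was at least 2-fold lower. This was Ssbp1, the single-stranded DNA-binding protein that coats replicating mitochondrial DNA. It held 1.82, 1.98, 2.05 and 2.95 FPKM in WT and 1.01, 0.263, 0.683 and 0.261 in KO. Every KO oocyte was below every WT oocyte, as for 7.37% of compared genes. Ssbp1 passed the filter through its 4 WT oocytes and KO oocyte 1 alone, so a gene like it could pass only by being high in WT, and its place in these counts supports nothing. The WT mean was 3.97-fold above the KO mean, and 3.37-fold to 5.47-fold as each oocyte was left out. Rnaseh1, which removes RNA from RNA-DNA hybrids, was the most abundant, with 36.3 ± 14.5 and 38.1 ± 15.6 FPKM.

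Of 19 genes for RNA processing, polyadenylation and decay 12 were compared. Fastkd1, of a family of mitochondrial RNA-binding proteins, was 2.02-fold lower in KO, with up to 19.6 FPKM in WT and 4.68 to 12.0 in KO, every WT oocyte lying above every KO oocyte. That fold was 1.77 without KO oocyte 3, and also under 2 without WT oocyte 1, WT oocyte 4 or KO oocyte 5. Mtpap, the mitochondrial poly(A) polymerase, had the highest mean over all 8 oocytes, with 60.8 ± 7.06 and 44.6 ± 10.4 FPKM in WT and KO and overlap between genotypes. In this list 3 of the 12 compared genes were lower in KO without overlap, where 7.37% of all compared genes were. Beside Fastkd1 these were Rexo2, an oligoribonuclease, and the helicase gene Supv3l1, both named after their values were seen. Rexo2 had a WT mean of 62.9 ± 9.02 and a KO mean of 37.0 ± 8.73 FPKM, 1.70-fold apart, and in WT it was above Mtpap. Supv3l1 held 12.8 to 17.3 FPKM in WT and 10.1 to 12.3 in KO, with means 1.23-fold apart.

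Of 16 genes for RNA modification 6 were compared and none differed by 2-fold. Trnt1, which adds the CCA end to transfer RNAs, was the most abundant, with 35.4 ± 4.64 and 38.2 ± 17.1 FPKM. Of 6 matched genes for mitochondrial nucleotide supply 4 were compared, and 2 were at least 2-fold higher in KO. Samhd1, which breaks down deoxynucleotides, held 11.7, 9.05, 4.53 and 6.14 FPKM in WT and 33.2, 13.3, 23.2 and 33.3 in KO. Its genotypes did not overlap and the means differed 3.28-fold. Slc25a36, a pyrimidine nucleotide carrier, was 2.34-fold higher, without overlap, and 1.81-fold without WT oocyte 1. Rrm2b, a ribonucleotide reductase subunit, was the most abundant at 51.1 ± 9.68 and 58.6 ± 4.08 FPKM. Of 8 nuclear regulators 3 were compared and none differed by 2-fold. Gabpb1, a subunit of GABP, was the most abundant, with 2.64 ± 1.31 and 3.16 ± 0.958 FPKM.

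**Figure D4:**
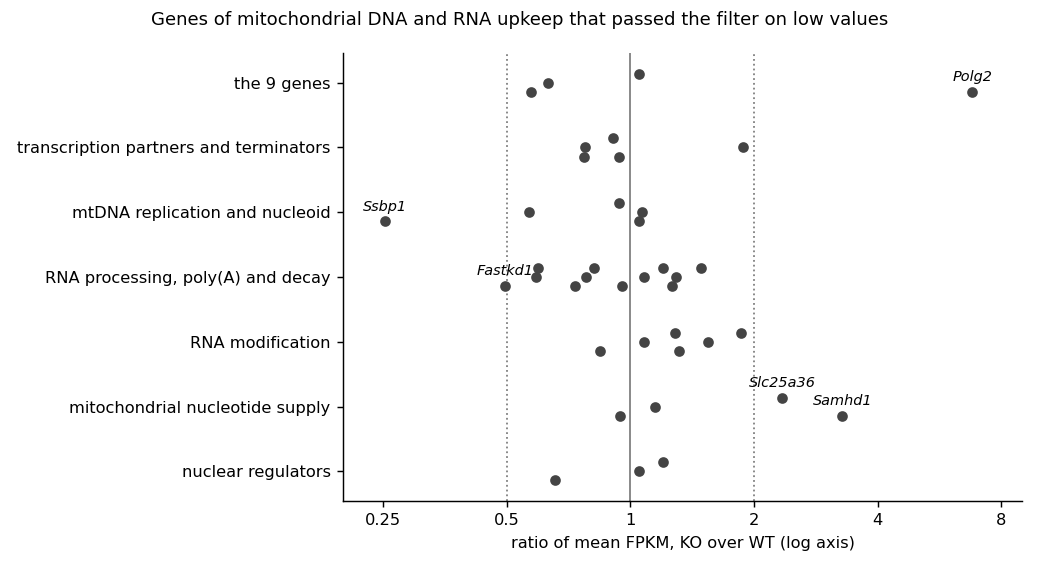
Ratio of mean FPKM, KO over WT (horizontal, log axis), for the compared genes of each list, 1 point per gene, with names for those past 2-fold (dotted lines). Polg2 is farthest to the right at 6.80, and Ssbp1 farthest to the left.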

How the data were processed

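RNA of 8 single oocytes was made into cDNA and amplified with a SMARTer kit, per the labels' protocols. The values are FPKM in 1 table as deposited by the authors. Per the submitters' processing notes the build was mm9 and the tools included edgeR 3.1.10, HTSeq, TopHat2 2.0.2, Bowtie2 and Bowtie 0.12.8, without stated roles. The annotation, gene lengths, strand use and treatment of shared reads are not stated in the labels or the table.

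Because FPKM moved in steps of 1 read, whole reads and library totals were recovered for 18415 of 18416 genes with any read (105052 of 105060 values whole within 0.0001 reads). The totals rested on genes whose length equals the exon length in GENCODE M21. The recovery was tested on simulated data. Symbols, coordinates and exon overlaps came from GENCODE M21 tables on GRCm38 and were not carried to mm9.

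Ratios are of mean FPKM, and log2 differences subtract the WT mean of log2(FPKM + 1) from the KO mean, which understates changes of low genes. A gene counts as higher or lower at 2-fold. The labels name no female, so each genotype is 1 sample and no test was made. Spike-in values were not used. The 9 genes and all lists were chosen with earlier results of these data known. Named genes are the 9, and in each other list the most abundant and up to 2 past 2-fold in each direction. Mpv17 and Hbb-b1 were not analysed here. Alternatives covered the pseudocount, scaling, filter, each oocyte left out and a replicate block. Python 3.11.15, numpy 2.4.6, pandas 2.3.3 and scipy 1.17.1 were used.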

Additional observations from a re-analysis of the deposited data

Results flagged for a closer look

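In groups of 4 oocytes, 46 were examined for an oocyte far from the other 3 by Dixon's test, the gap to its nearest neighbour over the whole range. Chance passes about 1 in 20, and 4 passed. WT oocyte 2 was high in Polrmt, at 0.956 FPKM where the other WT oocytes held 0.0255 to 0.0673, a gap of 0.955 of the range. KO oocyte 6 was low in Tfb2m, at 3.38 FPKM against 6.48 to 6.82, a gap of 0.901. WT oocyte 1 was high in Gabpb1, at 4.59 FPKM against 1.81 to 2.19, a gap of 0.862. WT oocyte 1 also had the highest ratio of mitochondrial mRNA reads to rRNA reads, above the 10.1 to 10.6 of the other WT oocytes by a gap of 0.853 of the range.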

How the results depend on the processing

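Of the 9 genes 4 passed the filter. At least 2-fold higher in KO was 1 of these 4, as were 18.3% of compared genes. The count was 2 of 5 with median-of-ratios scaling, where 1188 of 7827 genes were. It was 3 of 6 when scaled to reads in listed genes, where 1791 of 8257 were. With no filter it was 5 of 9, against 36.9%. Below the filter with at least 80 reads, a setting chosen after seeing the data, it was 4 of 5, against 43.0%. No WT oocyte reached an unscaled FPKM of 1 in the 5 genes below the main filter. The scalings therefore let such genes in mainly through KO values, and their entry supports nothing. The count was 1 without each oocyte. The count at least 2-fold lower was 0 of 4, and 0 to 2 without single oocytes. Tfb1m and Pnpt1 were past 2-fold without KO oocyte 3, where 648 of 7833 compared genes were lower. The median difference of -0.32 ranged from -0.47 to -0.08 without single oocytes and was -0.07 with median-of-ratios scaling. Its sign turned to 0.59 when scaled to reads in listed genes, 0.08 with no filter, 0.05 at a mean FPKM of at least 5 and 0.38 for the genes below the filter, settings that change which of the 9 enter.

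Of the 35 other pathway genes compared, 2 were higher and 2 lower by 2-fold. Without single oocytes 1 to 4 were higher and 1 to 3 lower. Scaled to reads in listed genes, 6 of 37 were higher and 1 lower, where 1791 and 449 of 8257 genes were. With no filter 14 of 66 were higher and 11 lower, against 36.9% and 15.6% of genes with any read. At a mean FPKM of at least 5 these were 1 and 1 of 16, against 555 and 271 of 4325. Below the filter with at least 80 reads 10 of 23 were higher and 3 lower, against 43.0% and 17.4%. The share of gene reads from the mitochondrial genome differed by -1.68 percentage points, and by -2.22 to -1.35 without single oocytes. Scaling moved the median of all compared genes from 0.10 to -0.02 or 0.20 (log2). The cause of these shifts was not tested.

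Oocytes 1 and 5 share a number in both genotypes, which the labels do not explain. Their deviations from the genotype means correlated at 0.0304 and 0.0680. Pairs of other numbers ran from -0.0870 to 0.103, so the same-number pairs did not stand out. A replicate block on these numbers gave 1 of the 4 genes that passed the filter higher and 2 lower. Of the 35 other pathway genes 4 were higher and 2 lower in it, and of all 7833 compared genes 1509 and 846. The mitochondrial difference was -0.60. Polg2 was 7.41-fold higher in this block. Polg and Slirp had at most 49 reads in any oocyte, which limits the precision of their ratios.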

Other observations

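Some genes of the wider lists that did not pass the filter were read almost wholly in 1 genotype. Those described are a selection, named after their values were seen. Others had fewer reads, nearly all in 1 oocyte. Among them Rpusd3 had 78 reads in WT and 1 in KO, Exog 73 and 5, Gtpbp3 30 and 1, and Top1mt 0 and 28. Hsd17b10, which encodes a subunit of the mitochondrial ribonuclease P that frees transfer RNAs, had 10, 0, 0 and 8 reads in WT oocytes 1, 2, 4 and 5 and 53, 153, 127 and 303 in KO oocytes 1, 3, 5 and 6. Every KO oocyte was above every WT oocyte. Pus1, a pseudouridine synthase of mitochondrial and nuclear transfer RNAs, had 47, 162, 68 and 86 reads in WT and 1, 0, 0 and 0 in KO. Here every WT oocyte was above every KO oocyte.

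Ppargc1a, which encodes the coactivator PGC-1alpha of mitochondrial biogenesis, had no WT read and 0, 125, 5 and 218 reads in KO oocytes 1, 3, 5 and 6, so that 2 oocytes held nearly all of its reads. Pprc1, of the same coactivator family, was read in both genotypes. It had 85, 55, 18 and 214 reads in WT and 366, 203, 204 and 398 in KO, with overlap. Among 5432 genes below the filter with at least 80 reads, 7.71% were higher in KO and 1.68% lower without overlap between genotypes. Hsd17b10 and Pus1 reached 80 reads only through the genotype where they were high, and were picked for that pattern. These shares therefore say nothing about how unusual Hsd17b10 and Pus1 are.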
